A study of Mus musculus with 6 samples.

Results

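The genes described here encode proteins of the centrosome and of the cilium, taken by name from arrays of dividing and resting cells of the growing mouse liver. They are all genes with a single symbol in the platform annotation that is Cep followed by a digit, or that starts with Ift, Bbs, Nphp or Tctn and a digit, without the Cep genes of centriole duplication and abscission (Cep55, Cep63, Cep128, Cep135, Cep152, Cep192 and Cep295). This gave 56 of 19938 genes, made up of 30 Cep, 14 Ift, 8 Bbs, 3 Tctn genes and Nphp4. The name rule also took in Cep295nl. Livers of 3 weaned mice of a CyclinB1-GFP transgenic strain, 3.5 weeks old, were perfused and dissociated, and cells were sorted by fluorescence into a GFP-positive fraction, called replicating in the labels, and a GFP-negative fraction, called quiescent. Both fractions carry the reporter transgene, and the promoter that drives it is not given in the sources used here. Each fraction was hybridised to 3 Affymetrix arrays, numbered 1 to 3 as biological replicates.

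Centrosomes are built from a pair of centrioles inside a shell of pericentriolar material that nucleates microtubules, and the Cep proteins are named for their place there. In a resting cell the older centriole can dock at the plasma membrane through its appendages and template a primary cilium, which is taken down again before mitosis. The cilium is extended and maintained by intraflagellar transport (IFT), in which complex B accompanies transport to the tip and complex A the return, its membrane proteins are carried by the BBSome, and a transition zone at its base controls entry. In the liver, bile duct cells carry primary cilia, while hepatocytes mostly do not.

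Values are log2 of the deposited intensities, means are given with the SD over n = 3 arrays, and each difference is the GFP-positive mean less the GFP-negative mean on that scale ± SE, from limma fitted over all 19938 genes with Benjamini-Hochberg adjustment. A gene is said to have risen or fallen if its adjusted p was below 0.05. A gene that did not pass is not shown to be unchanged. The median log2 intensity of an array lay between 4.60 and 4.74, which serves as a floor. Where the GFP-negative mean lay below it, the fold is given as a lower bound, with values under an array's median raised to that median. As a check of the labelled tissue, all 10 measured hepatocyte markers lay above the array medians on every array, with summed intensities of 52865 to 56615 in GFP-negative and 49336 to 52517 in GFP-positive cells. Of 9 measured bile duct (cholangiocyte) markers, 5 lay below the array medians on all 6 arrays. The summed intensity of these 9 was 178 to 202 in GFP-negative and 181 to 200 in GFP-positive cells, and none passed the test. Summed intensities of 10 stellate cell markers were 389 to 441 in GFP-negative and 297 to 338 in GFP-positive cells, those of 10 endothelial markers 355 to 447 and 327 to 330, those of 10 macrophage markers 228 to 278 and 199 to 213, and those of 6 erythroid markers 404 to 426 and 253 to 345. All 4 sums were lower in each GFP-positive array, as was the hepatocyte sum, while 9 lymphoid markers overlapped (152 to 175 and 156 to 168). Of the 5 lists from stellate to lymphoid cells only Clec4f, a Kupffer cell gene, passed, lower in GFP-positive cells (-0.68 ± 0.13, adjusted p = 0.032). Its adjusted p was 0.077 with the replicate number as a block and 0.07 to 0.15 with any single array left out. The part of these cell types in the results was not tested. In sorted bulk cells a higher level can mean more cells with the transcript or more transcript per cell, and these cannot be told apart.

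Of the 56 genes, 6 rose in GFP-positive cells and none fell. They were the IFT gene Ift80 and the centrosomal genes Cep70, Cep112, Cep57, Cep57l1 and Cep290, with measured log2 differences from 0.88 to 1.39. The 6 make up 10.7% of the genes, beside 1.55% of all genes tested that rose and 0.115% that fell. At an unadjusted p below 0.05, 12 were higher (21.4%, beside 5.01% of all genes) and 1 was lower (Ift22, beside 3.79%). The median measured difference was 0.12 over the 56 genes and -0.03 over all genes. With values below the array medians raised to them the medians were 0.06 and 0.03, and without GFP-negative 1 they were 0.06 and -0.04. As measured, 38 of the 56 differences lay above 0 (67.9%, beside 44.3% of all genes). In 15 of them all GFP-positive arrays lay above all GFP-negative ones, and in 1 (Ift172) all lay below. These are 26.8% and 1.79% of the genes, beside 6.82% and 6.98% of all genes. By family, 5 of 30 Cep genes rose (median 0.17, 25 above 0), and 1 of the 26 Ift, Bbs, Nphp and Tctn genes (median -0.02, 13 above 0). The difference between the families was not tested.

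**Figure D1:**
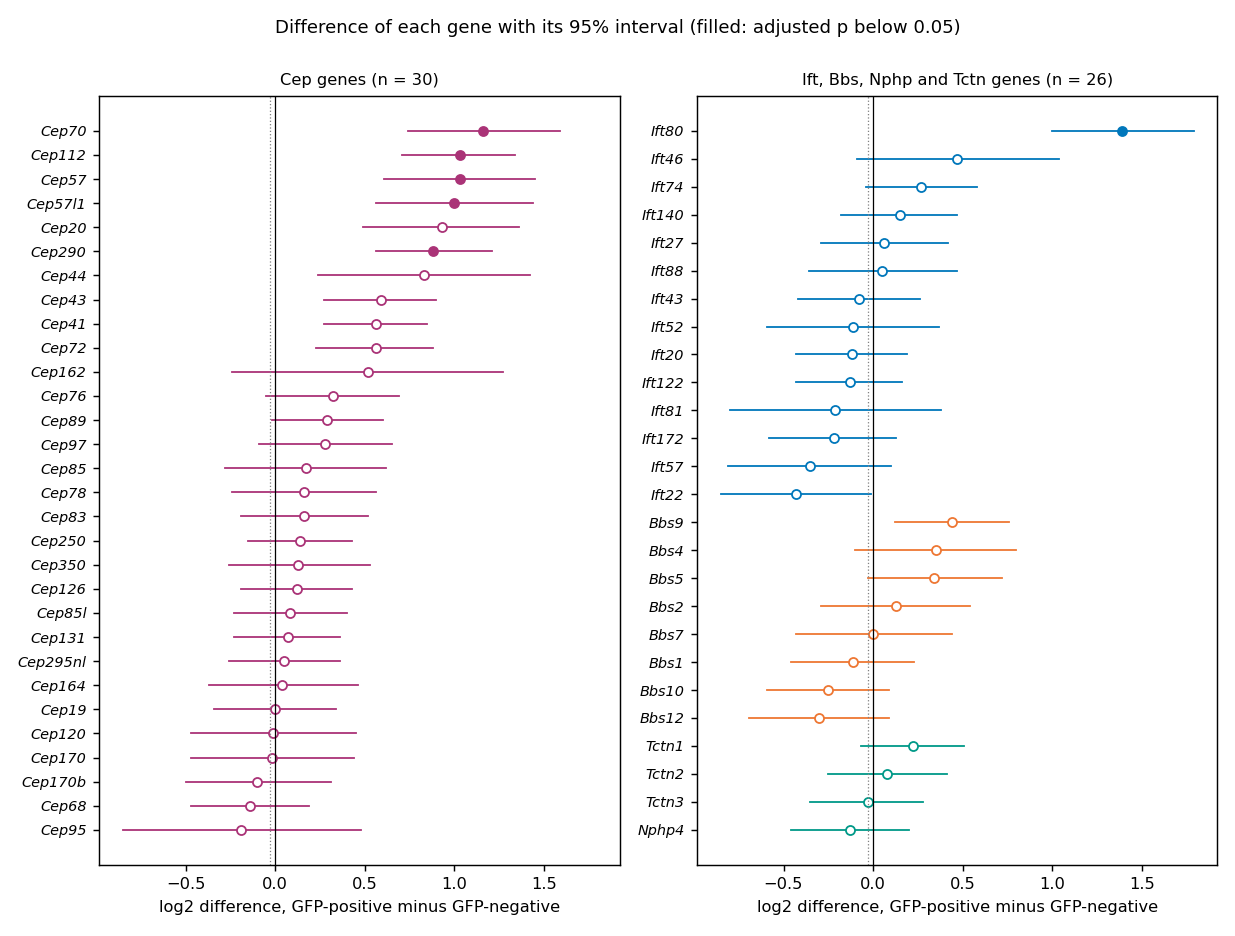
Log2 difference, GFP-positive minus GFP-negative, of each of the 30 Cep genes (left) and the 26 Ift, Bbs, Nphp and Tctn genes (right), ordered by size within a family. Points are differences from limma, lines their 95% intervals, filled points have an adjusted p below 0.05 and the dotted line is the median of all genes. The 5 filled Cep genes lie between 0.88 and 1.16, and Ift80, at 1.39, stands apart from the other Ift genes, the next of which is Ift46 at 0.47.

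Among the genes of pericentriolar material and microtubule organisation, Cep70, whose protein binds gamma-tubulin and promotes microtubule assembly at the centrosome, rose from a level below the array medians. Cep70 (probe set 10588091) stood at 4.06, 4.61 and 4.5 in GFP-negative arrays 1, 2 and 3 and at 5.50, 5.33 and 5.82 in GFP-positive ones. The groups did not overlap, and the lowest GFP-positive value was that of number 2. The difference was 1.16 ± 0.19 (adjusted p = 0.012), at least 1.85-fold. Without GFP-positive 3 the adjusted p was 0.056.

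Cep57 encodes a scaffold of the pericentriolar material that forms a complex with Cep63 and Cep152, and Cep57l1 encodes its paralogue. Cep57 (probe set 10590892) measured 5.84, 6.17 and 5.72 in GFP-negative cells and 6.79, 7.27 and 6.75 in GFP-positive cells, a 2.04-fold rise (difference 1.03 ± 0.19, adjusted p = 0.024). Cep57l1 (probe set 10368845) measured 4.93, 5.27 and 4.91 against 5.68, 6.35 and 6.09 (1.0 ± 0.19, adjusted p = 0.034). In both genes number 2 was the highest array of its group, and between arrays of the same number the differences lay close together, at 0.95, 1.10 and 1.03 for Cep57 and 0.74, 1.08 and 1.18 for Cep57l1. Both calls were near the threshold. Leaving out GFP-negative 1 or 3 raised the adjusted p of Cep57 to 0.11, leaving out GFP-positive 1 to 0.055 and GFP-positive 2 to 0.065. For Cep57l1 the adjusted p rose to 0.15 when GFP-negative 1 was left out, to 0.14 for GFP-negative 3 or GFP-positive 3 and to 0.10 for GFP-positive 2, and it was 0.059 after quantile normalization and 0.051 with arrays centred on their medians.

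Cep112, a coiled-coil protein gene, rose from below the array medians to above them. Its probe set (10382200) read 3.74, 4.03 and 3.95 in GFP-negative cells, all below the array medians, and 4.98, 4.85 and 4.97 in GFP-positive cells, all above them. The difference was 1.03 ± 0.14 (adjusted p = 0.0038), and because the GFP-negative level lay under the floor the fold is at least 1.21. The adjusted p stayed between 0.0092 and 0.026 when any single array was left out.

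Cep290 encodes a large protein of the ciliary transition zone and of centriolar satellites, and its mutation is a known cause of ciliopathies. Cep290 (probe set 10366073) stood at 4.10, 4.29 and 4.33 against 4.96, 5.16 and 5.25, with no overlap and nearly equal differences of 0.85, 0.87 and 0.92 between arrays of the same number. The difference was 0.88 ± 0.14 (adjusted p = 0.012), at least 1.38-fold. The adjusted p was 0.072 without GFP-negative 1 and 0.070 without GFP-positive 3.

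**Figure D2:**
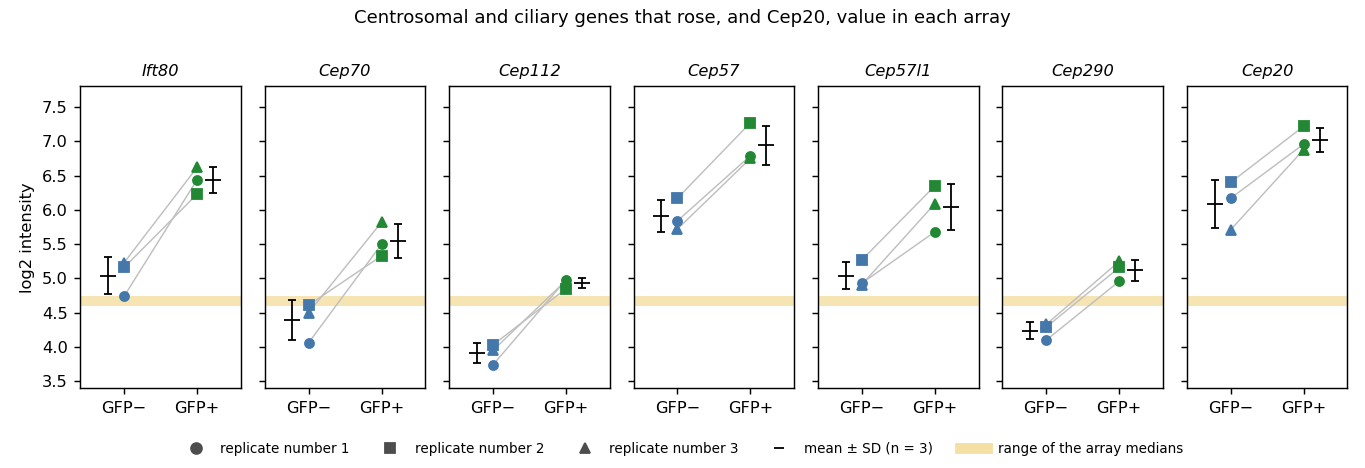
Log2 intensity of Ift80, Cep70, Cep112, Cep57, Cep57l1, Cep290 and Cep20 in each GFP-negative (blue) and GFP-positive (green) array, with the mean and SD of each group in black. Marker shapes give the replicate number, grey lines join arrays of the same number, and the yellow band is the range of the array medians (4.60 to 4.74). In all 7 genes the 3 GFP-positive arrays lie above the 3 GFP-negative ones. Cep112 and Cep290 cross the band between all arrays of the same number. Cep70 also ends above the band, from GFP-negative values below it or, in number 2 (4.61), inside it.

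Promoter windows show what these genes carry near their starts. RefSeq windows of GRCm38.p6, from 250 bases before to 50 after a start site, were found for 49 of the 56 genes (57 windows). The 7 others were Ift80, Ift81, Ift122, Cep76, Cep120, Cep295nl and Cep350. Both strands were searched for 5 motifs. The cell cycle homology region was taken as TTTGAA and the CCAAT box by its name. The core of an E2F site was taken as GCGGGAA. An arm of the X-box, which RFX factors of ciliary genes bind, was taken as GTTGCC, and a complete X-box, which contains that arm, as the arm followed at a distance of 2 bases by GGNAAC. The following windows are those of Cep112 (chr11:108425016-108425315, plus strand), Cep70 (chr9:99243091-99243390, plus strand), Cep290 (chr10:100487332-100487631, plus strand) and Bbs7 (chr3:36613340-36613639, minus strand). Cep112, Cep70 and Cep290 rose, and their windows hold different sets of motifs, with an E2F core in both Cep112 and Cep70. Bbs7 did not pass the test, and its window holds a complete X-box. Capitals mark every match of these motifs.
Cep112: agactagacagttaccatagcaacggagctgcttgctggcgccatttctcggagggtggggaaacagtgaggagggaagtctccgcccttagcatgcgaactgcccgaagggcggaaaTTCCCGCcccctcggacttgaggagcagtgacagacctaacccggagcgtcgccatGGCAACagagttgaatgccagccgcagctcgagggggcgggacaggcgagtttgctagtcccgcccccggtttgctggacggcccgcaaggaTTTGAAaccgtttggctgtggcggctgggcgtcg
Cep70: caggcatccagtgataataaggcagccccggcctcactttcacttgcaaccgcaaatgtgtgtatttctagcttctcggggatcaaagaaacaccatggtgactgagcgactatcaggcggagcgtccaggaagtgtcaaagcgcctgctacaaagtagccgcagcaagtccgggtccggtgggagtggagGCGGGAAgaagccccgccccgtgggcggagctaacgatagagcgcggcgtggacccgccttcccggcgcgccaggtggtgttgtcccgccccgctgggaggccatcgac
Cep290: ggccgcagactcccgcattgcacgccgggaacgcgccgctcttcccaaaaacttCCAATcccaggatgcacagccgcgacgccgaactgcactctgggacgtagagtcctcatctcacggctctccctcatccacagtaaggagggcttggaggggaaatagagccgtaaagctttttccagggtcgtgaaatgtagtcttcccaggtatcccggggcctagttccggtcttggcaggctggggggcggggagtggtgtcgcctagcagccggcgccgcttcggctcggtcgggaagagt
Bbs7: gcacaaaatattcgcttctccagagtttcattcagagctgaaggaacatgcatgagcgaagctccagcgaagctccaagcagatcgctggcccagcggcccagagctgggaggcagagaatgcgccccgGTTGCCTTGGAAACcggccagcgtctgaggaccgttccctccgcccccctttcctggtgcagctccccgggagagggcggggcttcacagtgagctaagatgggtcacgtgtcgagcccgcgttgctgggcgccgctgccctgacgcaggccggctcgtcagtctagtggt
The Cep112 window is the most upstream of its 3, and the others hold none of the 5 motifs. The printed window holds TTTGAA after the start, and an E2F core and an X-box arm in reverse orientation. This arm follows gtcgcc at a distance of 2 bases. Near its upstream end the window also holds gttacc followed at 2 bases by agcaac. Neither pair has the letters searched for a complete X-box, and whether they form X-boxes with other letters was not tested. The Cep70 window holds an E2F core and none of the other motifs, and the Cep290 window holds a CCAAT box alone.

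GCGGGAA was found in windows of 3 of the 5 risen genes that had one (Cep112, Cep70 and Cep57) and of 4 of the 44 genes that did not pass. By window it was in 4 of 9 (44.4%), with the overlapping Cep57 windows each counted, and in 4 of 48 (8.33%). Of all 32851 windows, 4.60% held it. TTTGAA was in 25% of the Cep windows (7 genes, Cep112 and Cep57l1 among those that rose), in 0 of 25 windows of Ift, Bbs, Nphp and Tctn genes, and in 17.9% of all windows. The X-box arm was in 48.0% of the Ift, Bbs, Nphp and Tctn windows, in 25% of the Cep windows and in 12.5% of all windows. The complete X-box in the letters searched was in 3 genes, Bbs7, Tctn1 and Cep19, none of which passed the test, and in 0.298% of all windows. Other forms of the X-box were not searched for. Windows without a complete match, the printed one of the risen gene Cep112 among them, are therefore not shown to lack an X-box. A CCAAT box was in 50.9% of the 57 windows and 37.4% of all. Windows of 1 gene can overlap, and these matches describe letters and not binding.

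Several further Cep genes lay above the resting level without passing the test. Cep20 encodes a small centriolar satellite protein needed for cilium formation, and Cep43, related to it in its N-terminal region, encodes a protein that anchors microtubules at the centriole. Cep20 (probe set 10437928) read 6.17, 6.40 and 5.71 against 6.96, 7.22 and 6.88, a difference of 0.93 ± 0.19 with an adjusted p of 0.051. With the replicate number as a block its adjusted p was 0.021, and without GFP-negative 2 it was 0.030. Cep43 (0.59 ± 0.14, adjusted p = 0.10), Cep41, which is needed for glutamylation of ciliary tubulin (0.56 ± 0.13, adjusted p = 0.089), and Cep72, a satellite protein gene (0.56 ± 0.14, adjusted p = 0.14), also had groups that did not overlap. Cep44, a centriole protein gene, had a difference of 0.83 ± 0.26 (adjusted p = 0.28) that rested on number 3, with 0.34, 0.50 and 1.64 for numbers 1, 2 and 3. These 5 genes were chosen after their values were seen.

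The remaining 20 Cep genes had differences between -0.19 and 0.52. The distal appendage genes, whose proteins dock the centriole at the membrane, read 0.29 for Cep89, 0.16 for Cep83 and 0.04 for Cep164. The genes of the fibre that links the centrosomes read 0.14 ± 0.13 for Cep250, its anchor, and -0.14 ± 0.15 for Cep68. Cep97, which caps the centriole together with Ccp110 and holds back cilium growth, stood at 0.28 ± 0.16 (adjusted p = 0.73), and Cep76, which limits centriole reduplication, at 0.32 ± 0.17 (adjusted p = 0.65). The satellite gene Cep131 (0.07 ± 0.13) and the subdistal appendage gene Cep170 (-0.02 ± 0.20) were close to 0. The 95% intervals of Cep131, Cep164, Cep19 and Cep250 ended at 0.36, 0.46, 0.34 and 0.43. The lowest difference was that of Cep95 (-0.19 ± 0.30, adjusted p = 0.94). It read 4.89, 6.30 and 5.78 in GFP-negative and 5.38, 5.55 and 5.48 in GFP-positive cells, so that the first group spread around the second, and without GFP-negative 2 its difference was 0.14. For Cep350, a microtubule-anchoring protein gene with 6 probe sets, the differences ran from -0.04 to 0.53 and none passed. The second probe sets of Cep164 and Tctn1 read 0.03 and -0.03.

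Ift80 was the gene that rose among the 14 of intraflagellar transport. It encodes a subunit of complex B. Its probe set (10498599) read 4.74, 5.16 and 5.23 in GFP-negative cells and 6.44, 6.23 and 6.62 in GFP-positive cells, a 2.62-fold rise (difference 1.39 ± 0.18, adjusted p = 0.0022). The groups did not overlap, and the adjusted p stayed between 0.0047 and 0.014 when any single array was left out. The other 10 complex B genes did not pass: their differences ran from -0.43 to 0.47. Ift46 stood at 0.47 ± 0.25 (adjusted p = 0.66), and its GFP-negative arrays varied most within the family (SD 0.58). Ift88, whose protein is a core subunit of complex B needed for cilium assembly, read 0.05 ± 0.19, and Ift20, which also works at the Golgi, read -0.12 ± 0.14. Ift22, a small GTPase-like subunit gene, had the lowest difference (-0.43 ± 0.19, adjusted p = 0.55), with 6.84, 6.41 and 6.27 against 6.33, 5.90 and 5.99. Its difference was negative in all 3 numbers (-0.50, -0.51 and -0.28), but the groups overlapped. The 3 complex A genes read 0.15 for Ift140, -0.08 for Ift43 and -0.13 for Ift122. Over the 14 Ift genes the median was -0.09, with 6 above 0.

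The position of Ift80 in the genome was looked at after its value was seen. In the GRCm38.p6 annotation it lies next to Smc4, which encodes a condensin subunit, and Trim59 follows. Smc4 read 7.36, 7.07 and 7.01 in GFP-negative and 10.00, 10.46 and 10.26 in GFP-positive cells (3.10 ± 0.17, adjusted p = 6.5e-06). Trim59 read 4.35, 3.57 and 3.66 against 7.35, 7.68 and 7.70 (adjusted p = 1.0e-05), at least 7.55-fold higher since its GFP-negative mean lay below the array medians. Of the 105 measured genes next to a gene of the 56 on either side, 2 passed the test, Smc4 and Ccna2, the cyclin A2 gene. Among all genes tested a similar share passed (1.55% rose and 0.115% fell). Ccna2 lies next to Bbs7 and read 4.57, 4.98 and 5.55 against 8.77, 9.18 and 9.06 (3.97 ± 0.24, adjusted p = 1.1e-05), while Bbs7 itself read 5.69, 5.41 and 6.05 against 5.79, 5.47 and 5.90 (0.00 ± 0.19, 95% interval -0.43 to 0.44). Of the 12 measured neighbours of the 6 risen genes, Smc4 alone passed. Cep57 overlaps Mtmr2 (0.38 ± 0.14) and Fam76b (0.35 ± 0.22), neither of which passed, Cep70 overlaps Faiml (-0.08 ± 0.14) and Cep290 overlaps 4930430F08Rik (-0.10 ± 0.17). Whether signal of 1 gene reaches the probe set of its neighbour was not tested.

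**Figure D3:**
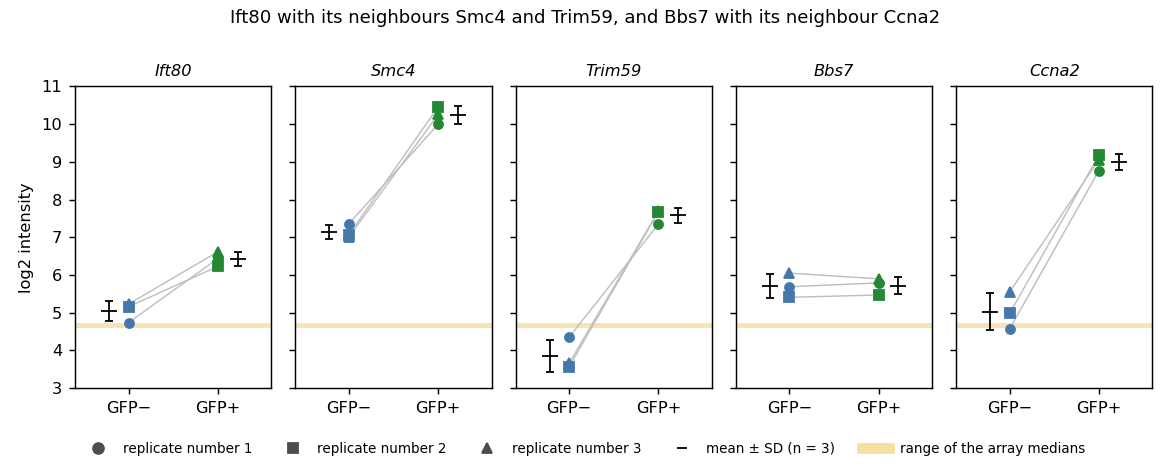
Log2 intensity per array of Ift80 with its neighbours Smc4 and Trim59, and of Bbs7 with its neighbour Ccna2, drawn as in the plot of the genes that rose (blue, GFP-negative; green, GFP-positive; black, mean and SD; grey lines, same number; yellow band, array medians). Ift80 is higher in all GFP-positive arrays beside Smc4 and Trim59, and Bbs7 differs by 0.00 beside Ccna2, which differs by 3.97.

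None of the 8 Bbs genes passed. Among the 6 that encode BBSome subunits, Bbs9 had the largest difference (0.44 ± 0.14, adjusted p = 0.30), reading 5.43, 5.71 and 5.73 against 6.0, 6.07 and 6.11 with no overlap. Bbs4 and Bbs5 stood at 0.35 and 0.34, Bbs2 at 0.13 and Bbs1 at -0.11. Bbs10 and Bbs12, whose chaperonin-like proteins help to assemble the BBSome, had the lowest differences of the family, at -0.25 ± 0.15 and -0.30 ± 0.17 (adjusted p = 0.74 and 0.71). Bbs12 read 3.07, 3.43 and 3.42 against 3.26, 2.78 and 2.98, below the array medians throughout, and its difference was 0.19 in number 1 and -0.65 and -0.44 in the others. The transition zone genes did not pass either. Tctn1, Tctn2 and Tctn3, whose proteins belong to a membrane-linked complex there, read 0.22 ± 0.13, 0.08 ± 0.15 and -0.03 ± 0.14, and Nphp4, a gene of the nephrocystin module, read -0.13 ± 0.15. Tctn1 read 5.05, 4.90 and 4.90 against 5.14, 5.21 and 5.16 without overlap, and its 95% interval ran from -0.07 to 0.51. Nphp4 read 4.73, 4.68 and 5.01 against 4.60, 4.66 and 4.77, with overlap.

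Genes of the same structures that carry other names were listed by function. Of 10 further IFT subunit genes none passed (median -0.10), nor did any of 10 ciliary motor genes (median 0.14), 9 further BBSome and ciliary membrane genes (0.07), 14 Hedgehog pathway genes, whose signalling runs through the cilium (-0.05), or 21 genes of motile cilia (-0.08). Of the 21 genes of motile cilia, 14 lay below the array medians on all 6 arrays. Of 19 further transition zone genes 1 rose, Cc2d2a, which encodes a partner of the Tctn proteins. It read 5.20, 5.73 and 5.28 against 6.55, 6.48 and 7.0 (1.27 ± 0.20, adjusted p = 0.0078, or 0.052 without GFP-negative 3).

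At the centrosome, 2 of 16 genes of pericentriolar material rose. Cdk5rap2, which tethers the gamma-tubulin ring complex, read 5.46, 5.50 and 5.23 against 6.72, 6.33 and 6.91 (1.26 ± 0.18, adjusted p = 0.0043), and Cntln, a centrosome cohesion gene, was at least 1.44-fold higher (measured difference 0.95 ± 0.17). Cntln had an adjusted p of 0.020, which became 0.076, 0.089, 0.067 and 0.10 without GFP-negative 2, GFP-negative 3, GFP-positive 2 and GFP-positive 3. Of 13 appendage and satellite genes, Cntrl, which encodes centriolin, rose 2.06-fold, from 5.29, 5.53 and 5.51 to 6.09, 6.54 and 6.83 (1.04 ± 0.19, adjusted p = 0.027). The adjusted p of Cntrl was 0.13, 0.063 and 0.091 without GFP-negative 1, 2 and 3, and 0.095 and 0.10 without GFP-positive 2 and 3. With the replicate block Ofd1, a satellite gene, also passed in this list (at least 1.55-fold higher, adjusted p = 0.12, or 0.029 with the block and 0.048 without GFP-negative 3). Of 11 genes that take down or hold back the cilium 3 rose, Aurka, Plk1 and Nek2, all kinases that also act in mitosis. Aurka read 5.37, 5.37 and 5.07 against 9.16, 8.97 and 9.05 (3.79 ± 0.15, adjusted p = 1.2e-06), and the differences were 3.16 ± 0.27 for Plk1 (adjusted p = 0.00015) and 2.40 ± 0.21 for Nek2 (adjusted p = 0.00017). Kif24, a kinesin gene whose protein restrains cilia at the mother centriole, stood at 0.66 ± 0.18 (adjusted p = 0.17). Of the 7 Cep genes left out by name 4 rose, each from a GFP-negative mean below the array medians. Cep55, an abscission gene, read 4.36, 3.87 and 3.78 against 7.08, 7.29 and 6.86 (adjusted p = 1.4e-05), at least 5.35-fold higher. Cep128, Cep295 and Cep192 were at least 2.20-, 2.11- and 1.98-fold higher, and the adjusted p of Cep295 was 0.059 and 0.085 without GFP-positive 2 and GFP-positive 3.

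**Figure D4:**
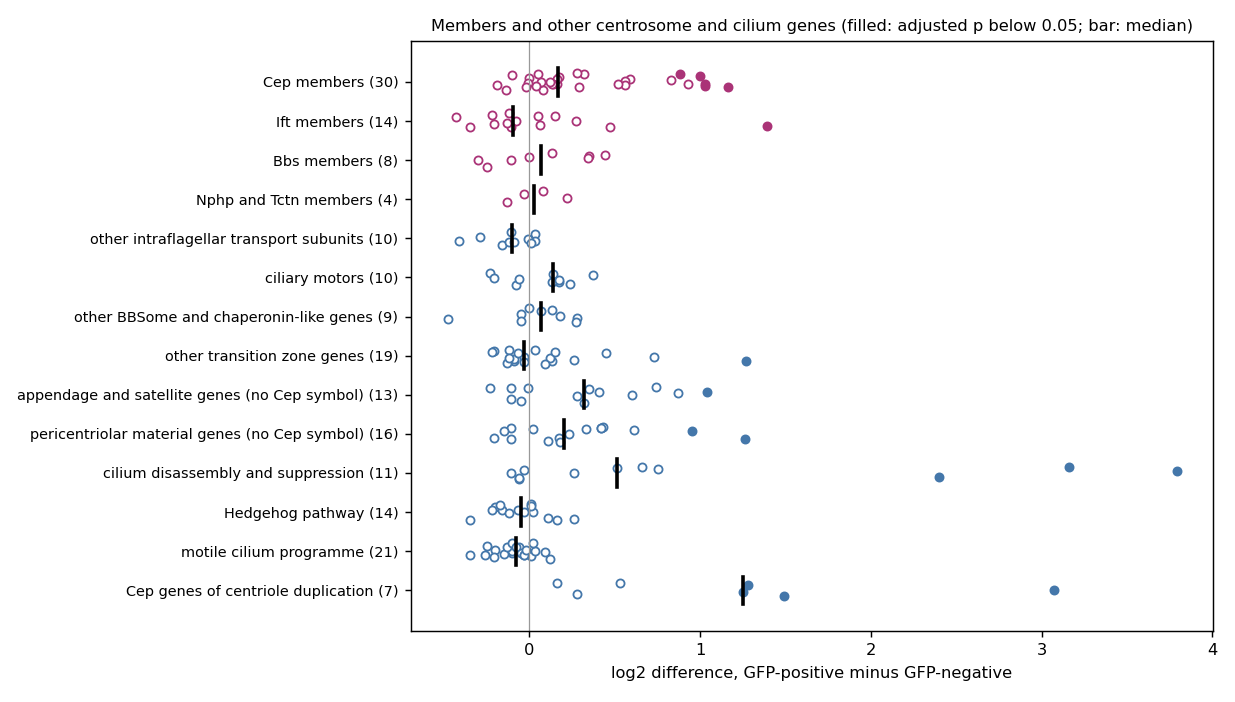
Log2 difference of each gene (points) in the 4 groups of the 56 genes (purple) and in other lists of centrosome and cilium genes (blue), with the number of measured genes in brackets, filled points for an adjusted p below 0.05 and a black bar at the median. The lists of other intraflagellar transport subunits, ciliary motors, Hedgehog signalling and motile cilia have no filled point, Ift80 is the filled point of the Ift genes, and the rightmost points are Aurka and Plk1 at 3.79 and 3.16.

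The arrays of number 2 gave the smallest median difference of the 56 genes (0.06, beside 0.18 for number 1 and 0.21 for number 3). They also stood apart in sex-linked genes, with Xist at 9.03 and 9.80 (3.73 to 4.04 elsewhere). Eif2s3y read 1.98 and 2.24 there and 6.78 to 7.31 elsewhere, and the part of sex was not tested. Left out together, a choice made after the data were seen, the number 2 arrays left 4 risen genes, Ift80, Cep70, Cep112 and Cep57, and a median of 0.17. The count of risen genes was 3 without GFP-negative 1 and 3 without GFP-positive 3, and between 4 and 7 without any other single array. Ift80 and Cep112 passed in each of these 6 fits.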

How the data were processed

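The deposited files give an intensity for each probe set, obtained with RMA per the submitters' processing notes. For its version and settings, the entry is: not given in the sources used here. Per the labels' protocols, 10 ng of total RNA per sample was amplified and biotin-labelled. The intensities were on a linear scale (1.62 to 15836, array medians 24.3 to 26.7), so log2 was taken and nothing else was normalized. Of 35512 probe sets, 21789 have 1 symbol, 1621 several and 12102 none in the platform annotation, and only the first were used, with the probe set of the highest mean for each of 999 genes that had more than 1. No filter on low values was applied, so all 56 genes were tested.

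Groups were compared by the moderated test of limma 3.58.1 under R 4.3.3 (two-sided, Benjamini-Hochberg over all genes, 4 residual and 5.44 prior degrees of freedom, threshold 0.05). Precision is limited by having 3 arrays a group. The fit was tested on simulated data. Plots used Python 3.11.15, pandas 2.3.3 and matplotlib 3.10.9.

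The series' design text has each of 3 livers give both fractions, and Xist read 9.03 and 9.80 in the number 2 arrays and 3.73 to 4.04 in the rest. Same-numbered arrays were therefore taken as pairs in the replicate block and in differences by number, although no label says so. The main fit did not use the pairing. Xist sets apart the number 2 arrays alone, so it cannot show how the others pair. Deviations from the group means of same-numbered arrays correlated by 0.20, 0.06 and -0.05. A fit with the replicate block, quantile normalization, centring, a filter on low means (13292 genes), means of probe sets, a trend, array weights and leaving out arrays were tried as alternatives.

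The genes and lists were chosen with earlier results of these data known. Genes named with full values were those that passed, the largest difference each way per family, and the leading called gene of each list. The promoter windows, the neighbours and other named genes were chosen after values were seen. Listed symbols without a match were not analysed here.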

Additional observations from a re-analysis of the deposited data

How the results depend on the processing

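Of the 56 genes, 6 rose as reported, 7 with the replicate block (Cep20 added), 5 after quantile normalization or centring on array medians, 7 with a filter on low means or with means of probe sets, 6 with an intensity trend, 9 with array weights and 4 without both number 2 arrays. Leaving out 1 array gave 3 to 7. At adjusted p below 0.01 there were 2 (Ift80 and Cep112) and below 0.10 there were 8. None fell in any of these fits. The median difference was 0.06 to 0.17 with 1 array left out (all genes -0.04 to 0.00) and 0.06 with values below the array medians raised to them (all genes 0.03), where the contrast with all genes was smallest.

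Ift80 and Cep112 passed in every fit run. With array weights Cep20 (adjusted p = 0.026), Cep43 (0.036) and Cep72 (0.044) also passed. Over 22 named genes and 306 repeats of a gene in another fit, 22 calls were lost, 7 were gained and 3 signs turned. These 3 were of Cep95, which read 0.01 with array weights, 0.10 without both number 2 arrays and -0.57 to 0.14 with 1 array left out. The cause was not tested. Without both number 2 arrays Cep57l1 and Cep290 no longer passed (adjusted p = 0.071 and 0.084). Probe sets below the array medians give little room to see a decrease, and 10 of the 56 lay there on all 6 arrays.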
